A study of Mus musculus with 9 samples.

Results

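Rccd1 and Prc1 are a pair of mouse genes that lie on opposite strands of the same stretch of chromosome 7, and their read counts were followed across uteri of 3 groups of mice. The pair was chosen by name after earlier results of the same counts had shown Rccd1 strongly lower in the CRC group, and Prc1 was taken with it as the gene on the other strand. The 2 features are 2 of the 55228 in each library, and both were among the 3722 with enough counts to be tested. Because the choice rested on the CRC libraries, all differences of the pair between CRC and the other groups are given as a description, without a test.

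RNA of the whole uterus of wild-type (WT) C57BL females aged 8 weeks was sequenced on day 7 after surgery, from 3 mice per group and with 1 library for each mouse. The sham group was sham operated, and further details of that operation are not given in the sources used here. Mice of the injury group had needle damage to the lining of the uterus (27 gauge, 10 withdrawals) and PBS (50 µL) without cells. The CRC group had the same damage and then 50 µL with 1000000 WT CRCs, which are conditionally reprogrammed epithelial cells of the endometrium expanded on irradiated feeder cells. The CRC group therefore differed from the injury group in the injected cells, and from the sham group in both the damage and the cells. Totals over all features ran from 280886 to 327883 counts per library, which is 0.776% to 0.898% of the records of a library. One count was worth 3.05 to 3.70 CPM, the unit used for levels, in which each library is set to the same total after scaling by TMM.

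Prc1 encodes a protein that cross-links antiparallel microtubules in the middle of the mitotic spindle and is needed for the final division of the cell, together with kinesins such as Kif4 and Kif20a. Its mRNA is made mainly in cycling cells around mitosis, and in the uterus cycling cells are found in the epithelium and the stroma as hormones and repair call for them. Rccd1 encodes a protein with the RCC1 fold, a propeller-shaped domain, and is known as a partner of the JmjC-domain protein Kdm8 in chromosome segregation.

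In GENCODE M21 on GRCm38, Rccd1 (ENSMUSG00000038930.11) is on the minus strand at chr7:80293229-80324454, and Prc1 (ENSMUSG00000038943.16) is on the plus strand at chr7:80294450-80316259, so that the whole of Prc1 lies within the outer bounds of Rccd1. The merged exons of Rccd1 cover 7897 bases and those of Prc1 8225 bases. They share 911 bases in 4 segments, which is 11.5% of the exon bases of Rccd1 and 11.1% of those of Prc1. The longest segment, chr7:80315590-80316259, has 670 bases and is where the last exons of transcripts Rccd1-201 and Prc1-201 meet tail to tail. It holds no annotated coding base of either gene, and so lies in the 3′ untranslated parts of both.

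The other 3 segments belong to 1 transcript of Rccd1, Rccd1-205, which has 9 exons and runs from 80293229 to 80320097 across the whole of Prc1. Its exon 9 covers 142 bases of the first exon of Prc1, among them 11 coding bases. Its exons 7 and 5 share 96 and 3 bases with Prc1. In all, 1579 of the exon bases of Rccd1 lie between the first and the last base of Prc1. Whether counting used the strand of a read is not given in the sources used here, and a read from shared bases cannot be assigned to 1 of the genes from these counts.

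**Figure D1:**
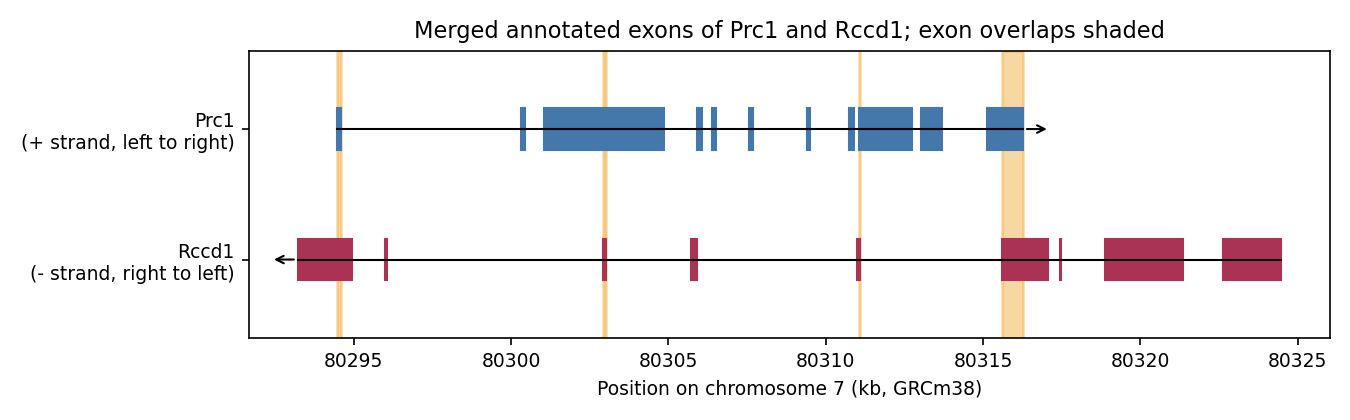
Merged exons (boxes) of Prc1 on the plus strand and Rccd1 on the minus strand along chromosome 7 (position in kb, GRCm38), with arrows in the direction of transcription and the 4 shared exon segments shaded. The widest shaded segment, of 670 bases, is at the 3′ end of Prc1.

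Rccd1 was low in every CRC library. Its counts were 241, 119 and 179 in the sham libraries (replicates 1 to 3), 310, 219 and 284 in the injury libraries, and 18, 34 and 25 in the CRC libraries. All 3 CRC libraries lay below all 6 others, while sham and injury overlapped, since sham replicate 1 with 782 CPM stood above injury replicate 2 with 770 CPM. The group levels were 621 ± 171 CPM in sham, 947 ± 159 CPM in injury and 78.5 ± 24.9 CPM in CRC (mean ± SD, n = 3 each). The order of the levels was thus CRC, sham, injury, with sham and injury not separated beyond their spread.

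As a description, the log2 fold change of Rccd1 was −2.98 (SE 0.25) for CRC against sham and −3.59 (SE 0.25) for CRC against injury, from the same fit of all 9 libraries. Among all tested features, 27 had a lower log2 fold change than Rccd1 in CRC against sham and 13 in CRC against injury. Of the tested features, 17.8% had all 3 CRC libraries below all 3 sham libraries and 17% had them below all 3 injury libraries, and nothing is read from this for a gene chosen for its fall. Both comparisons use the same CRC libraries, and each of them shares its other group with the comparison of injury and sham. In bulk tissue, fewer cells of a type and less RNA per cell cannot be told apart.

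Prc1 itself had overlapping levels in the 3 groups. Its counts were 46, 39 and 28 in sham, 39, 32 and 43 in the injury group, and 28, 37 and 35 in the CRC group. The CRC libraries, with 85.3, 114 and 107 CPM, overlapped both the sham and the injury libraries. The group levels were 131 ± 27.0 CPM in sham, 133 ± 19.3 CPM in injury and 102 ± 14.8 CPM in CRC (mean ± SD, n = 3 each), and neighbours in the order CRC, sham, injury overlapped in their libraries. As a description, its log2 fold change was −0.37 (SE 0.30) for CRC against sham and −0.38 (SE 0.30) for CRC against injury. With library sizes taken from all records the first of these was −0.073, a shift close to that of the median over all tested features, which moved from 0.027 to 0.32.

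**Figure D2:**
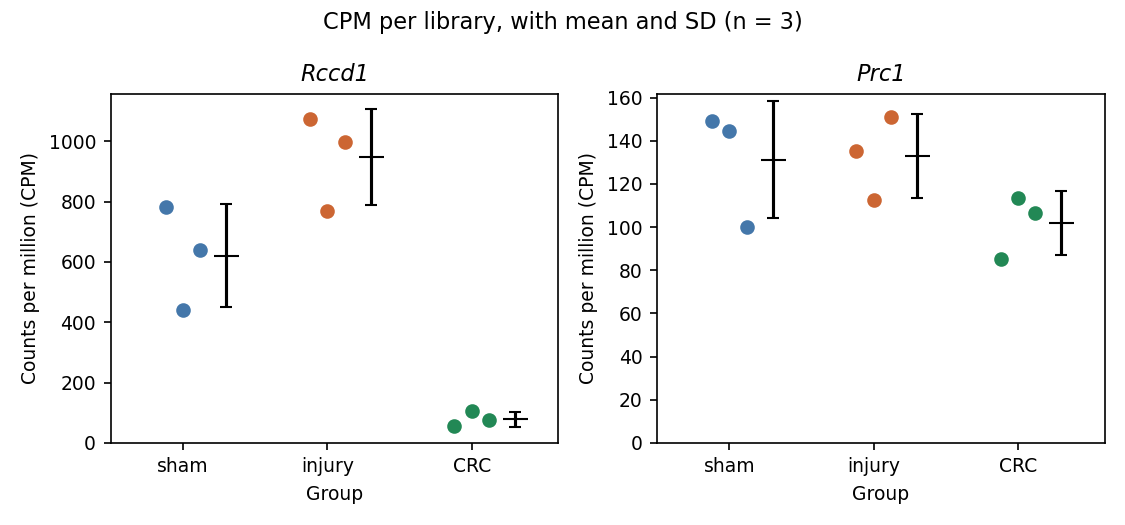
CPM (vertical axes, from 0) of Rccd1 and Prc1 in each library of the sham, injury and CRC groups (points), with mean and SD over n = 3 libraries (bars). The CRC libraries of Rccd1, at 54.8 to 104 CPM, lie below all others, and those of Prc1 overlap the other groups.

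The pair was also compared per length. Rccd1 held 68.3 counts per kb of exon over the 3 sham libraries, 103 over the injury libraries and 9.75 over the CRC libraries. Prc1 held 13.7, 13.9 and 12.2 counts per kb in the same order. Per kb of exon, Rccd1 was therefore above Prc1 in sham and injury and slightly below it in CRC.

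Within a library the ratio of Rccd1 counts to Prc1 counts does not depend on scaling. It was 5.24, 3.05 and 6.39 in sham, 7.95, 6.84 and 6.60 in the injury group, and 0.643, 0.919 and 0.714 in the CRC group. The group means were 4.89 ± 1.70, 7.13 ± 0.717 and 0.759 ± 0.143 (SD, n = 3 each). The ratio was highest in the injury libraries, all 3 of which were above the sham libraries, and under 1 in the CRC libraries. How often this holds for other pairs of features was not tested. Over the 9 libraries the log2 CPM of the 2 genes had a Pearson r of 0.69 and a Spearman coefficient of 0.68. These points share their libraries and depth, and by Pearson r with Rccd1 the rank of Prc1 was 451 among 3721 features.

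The comparison of injury with sham asks what the needle damage alone left behind on day 7, and it is the contrast that the choice of the pair did not use. Rccd1 was 1.52 times as high in injury as in sham, a log2 fold change of 0.61 (SE 0.20) that did not pass the test (edgeR quasi-likelihood, Benjamini-Hochberg adjusted p = 0.179). The result depended on sham replicate 1, the sham library with the most Rccd1. Without it the log2 fold change was 0.81 and passed (edgeR, Benjamini-Hochberg adjusted p = 0.0142, against a range of 0.0142 to 0.426 over all alternatives). Prc1 had a log2 fold change of 0.017 (SE 0.30; edgeR, Benjamini-Hochberg adjusted p = 0.989), and without sham replicate 3 it was −0.14. Of all tested features 16 were called between injury and sham, which is 0.43%, and without sham replicate 1 there were 154.

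How the counts of this study lie on the 2 strands bears on what a count on Rccd1 or Prc1 means. A list of 10 mRNAs that nearly all cells make in large amounts held 428 counts together over the 9 libraries, among them Actb, the cytoskeletal actin, with 6, and Gapdh, an enzyme of glycolysis, with 76. Xist, the RNA of the inactive X chromosome, held 77 counts, and Tsix, annotated on the strand opposite to it, held 44560. Rccd1 held 1429 counts and Prc1 327. Of all records, 90.4% lay in no feature. Counts are given throughout as counts on the named feature, and which strand the RNA behind them came from was not tested. A count on Rccd1 or Prc1 is therefore not read as the level of the mRNA of that gene.

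Genes of the central spindle and of mitosis were rarely counted on their own features. Of 51 such genes other than Prc1, 23 had 0 counts in all 9 libraries and 37 had under 10. A count of 0 in a library allows up to 9.14 to 11.1 CPM on that feature (3 counts), by counting error alone, and whether it bounds the level of the mRNA was not tested. Kif23, Birc5 and Anln, a central spindle kinesin, a subunit of the chromosomal passenger complex and the ring protein anillin, were among the genes at 0.

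Genes with an exon opposite to another feature stood apart in their counts. Over the lists of the spindle, mitosis and DNA replication, the 19 genes with such an exon had a median of 48 counts over the 9 libraries, and 8 of them passed the filter on low counts. The 56 genes without one had a median of 1 count and a maximum of 64, reached by the proliferation marker Mki67, and 0 passed. Prc1 belongs to the former, with 327 counts.

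Of the 51 genes 3 were tested, all of them with an exon opposite another feature. Kif20a, the kinesin that works beside Prc1 at the spindle midzone, held 139 counts in sham, 165 in injury and 134 in CRC, and was not called in any comparison. In CPM its CRC libraries lay below all injury libraries (log2 fold change −0.49, SE 0.30; edgeR, Benjamini-Hochberg adjusted p = 0.322). Ccna2, the cyclin of S phase and early mitosis, had totals of 60, 88 and 48 and was not called either. Its CRC libraries lay below all injury libraries, with a log2 fold change of −1.06 (SE 0.38; edgeR, unadjusted p = 0.0084 and Benjamini-Hochberg adjusted p = 0.0604). Nusap1, a microtubule-binding protein of the spindle, was higher in CRC than in sham in 3 of 3 libraries, with 41, 41 and 40 counts against 13, 22 and 13 (log2 fold change 1.14, SE 0.35; edgeR, Benjamini-Hochberg adjusted p = 0.0201). Against injury Nusap1 was not called, except in 2 of 15 alternatives. The call against sham was lost in 6 of 15 alternatives, with adjusted p-values up to 0.0843 by edgeR and Benjamini-Hochberg, among them those without sham replicate 1 or 3 and those without any 1 of the CRC replicates. By edgeR 0 of the 3 were lower in CRC than in sham or in injury, with 0 and 1 at an unadjusted p under 0.05 and 0 and 0 by DESeq2. Of all tested features 8.03% were called higher in CRC than in sham.

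Features on the strand opposite to these genes were compared next. Among the 52 genes of both lists 13 had an opposite feature, Rccd1 included, and of the 12 others 5 were tested. All 5 were lower in CRC than in sham and all 5 lower in CRC than in injury, where 12% and 7.82% of all tested features were called lower. Of the 2182 tested features that share exon bases with one on the other strand, 15.9% and 9.85% were. The count depends on which features are tested, with 5 of 10 called lower in each comparison without the filter on low counts, and 4 of 6 without CRC replicate 2 or 3. Cdc23, Lcorl and Gm37401 were called lower in both comparisons under all 15 alternatives.

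Such counts hold features that passed the filter through the groups in which they were high, so they are no support on their own. Of the 5 features, 3 had at least 10 counts in every library, namely Cdc23, Gm37401 and Lcorl. Exosc9 and Pdzd11 did not, and their calls are part of the count of 5 but are not read as results. The 7 opposite features that were not tested held 26 counts in sham, 66 in injury and 22 in CRC over all of them, and 2 of these 7 had 0 counts.

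The closest to Rccd1 in total counts was Cdc23, which lies opposite Kif20a and encodes a subunit of the anaphase-promoting complex. It held 204, 147 and 141 counts in sham, 224, 278 and 309 in the injury group, and 50, 28 and 38 in the CRC group. All injury libraries were above the sham libraries, for which no share over all tested features was taken, and all CRC libraries were below all others. This amounted to a log2 fold change of −2.27 (SE 0.22) for CRC against sham and −3.00 (SE 0.22) for CRC against injury (edgeR, Benjamini-Hochberg adjusted p = 5.86e-09 and 1.72e-11). Between injury and sham it was 0.73 (SE 0.19), not called (edgeR, Benjamini-Hochberg adjusted p = 0.0783).

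Exosc9, opposite Ccna2, encodes a subunit of the RNA exosome. Its counts were 30, 74 and 42 in sham, 61, 29 and 50 in the injury group, and 5, 11 and 2 in the CRC group, again with all CRC libraries lowest. As a description, its log2 fold change was −3.21 (SE 0.47) against sham and −3.12 (SE 0.47) against injury. Over all alternatives it ran from −3.95 to −2.75 against sham and from −3.885 to −2.73 against injury. With 2 CRC libraries under 10 counts it passed the filter through the other groups, so its calls, although part of the count of 5, are not read as results. Lcorl, a transcriptional regulator gene opposite the condensin subunit gene Ncapg, held 47, 35 and 49 counts in sham, 55, 36 and 48 in the injury group, and 22, 10 and 11 in the CRC group. Its CRC libraries too were below all others, with a log2 fold change of −1.79 (SE 0.35) against sham and −1.88 (SE 0.35) against injury (edgeR, Benjamini-Hochberg adjusted p = 0.00032 and 0.000278).

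Gm37401 is a short feature of 347 exon bases, of which 324 lie opposite exons of Rhoa, the small GTPase that drives the contractile ring. It was the most counted of the 5, with 562, 420 and 499 counts in sham, 399, 320 and 361 in the injury group, and 156, 205 and 179 in the CRC group, while Rhoa itself had 0. All CRC libraries were below all others. The log2 fold change was −1.64 (SE 0.16) against sham and −1.19 (SE 0.16) against injury (edgeR, Benjamini-Hochberg adjusted p = 5.86e-09 and 2.37e-06). Rhoa acts in many processes outside mitosis, so its place in the list is not specific to dividing cells.

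Pdzd11, a PDZ-domain protein gene opposite Kif4, was the least counted of the 5. It held 9, 21 and 13 counts in sham, 19, 4 and 8 in the injury group, and 5, 1 and 0 in the CRC group, so that the CRC libraries were below the sham libraries but overlapped the injury libraries. It passed the filter through the groups in which it was high, so its calls, although part of the count of 5, are not read as results. They were lost against injury in 8 of 14 alternatives, among them that without the filter, and against sham without CRC replicate 2 or 3. Kif4 itself held 10 counts in sham, 11 in injury and 1 in CRC and was not tested.

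Between injury and sham 0 of the 5 opposite features were called by edgeR. At an unadjusted p under 0.05 there were 2, 1 lower (Gm37401) and 1 higher (Cdc23), and DESeq2 called 1, which was higher. Over all 3722 tested features 0.43% were called by edgeR in this comparison, and 468 were at an unadjusted p under 0.05.

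**Figure D3:**
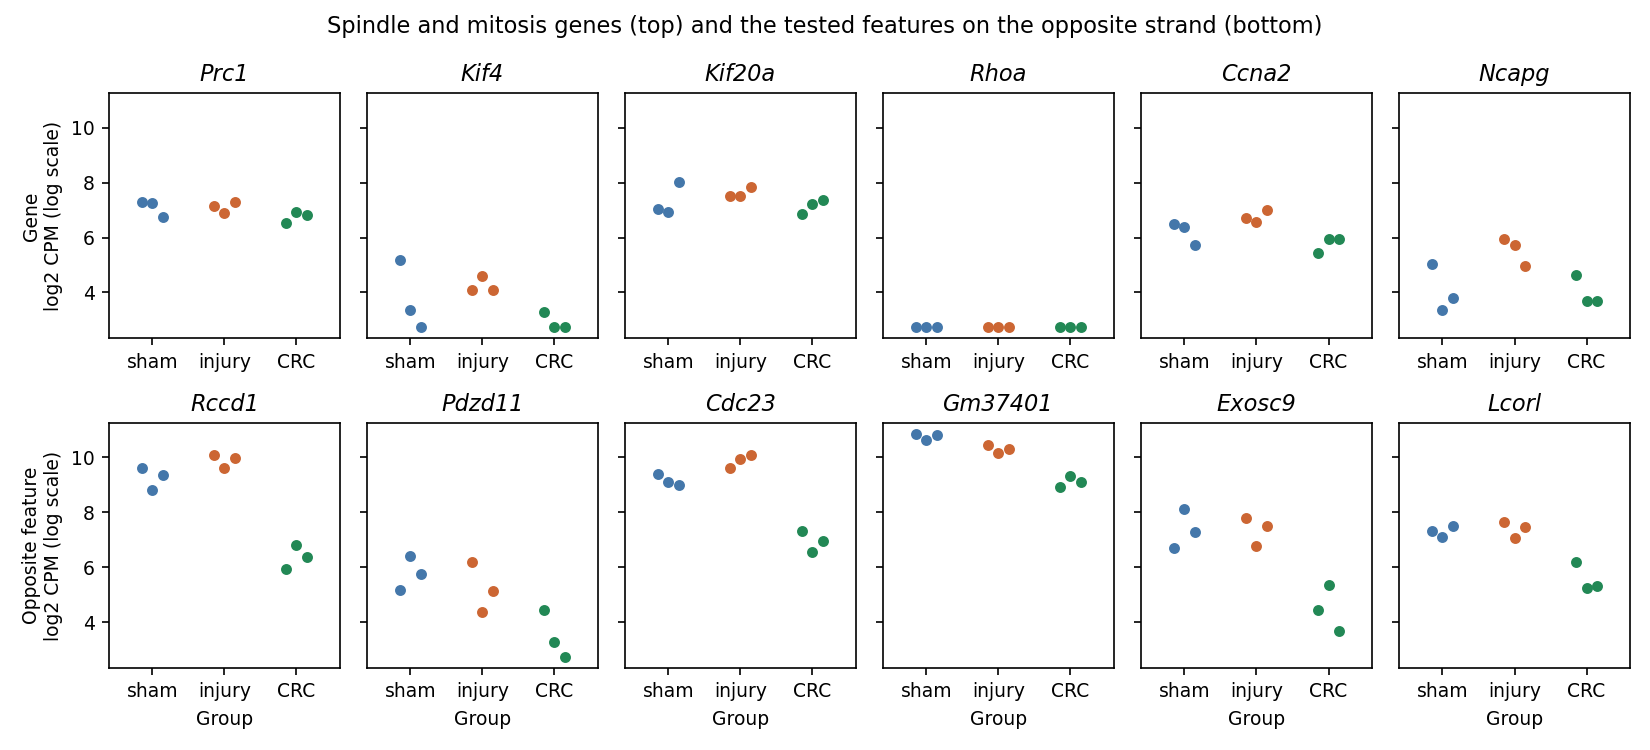
Log2 CPM (log scale, prior count 2) in each of the 9 libraries for Prc1 and 5 further spindle or mitosis genes (top row) and for the tested feature on the strand opposite to each (bottom row), by group. In the bottom row the CRC libraries lie below all others for each feature but Pdzd11, which overlaps injury, while Rhoa has 0 counts in all libraries.

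Genes of DNA replication and of entry into S phase act earlier in the cell cycle. Of 23 such genes 6 had an opposite feature, of which 3 were tested. By edgeR 1 of the 3 was called lower in CRC than in sham and 2 lower than in injury, and at an unadjusted p under 0.05 there were 3 and 2. Over all 3722 tested features 12% and 7.82% were called lower, and 1193 and 918 were at an unadjusted p under 0.05 in either direction. Whether they differed from the features opposite mitotic genes was not tested. LTO1, opposite the cyclin D1 gene Ccnd1, was lower in CRC, with 1284 counts in sham, 1132 in injury and 642 in CRC and log2 fold changes of −1.19 (SE 0.15) and −1.01 (SE 0.15) against sham and injury (edgeR, Benjamini-Hochberg adjusted p = 7.58e-07 and 1.71e-05). Ccnd1 itself held 254, 298 and 299 counts and was not called. Ap4m1, which lies opposite the helicase subunit gene Mcm7 and over a longer stretch opposite another gene, was called lower against injury (log2 fold change −0.62, SE 0.18; edgeR, Benjamini-Hochberg adjusted p = 0.0213), a call lost in 5 of 15 alternatives with values up to 0.149. They include those without CRC replicate 1 or 2 and without injury replicate 1 or 3. Against sham the log2 fold change of Ap4m1 was −0.48 (SE 0.19), with all CRC libraries below all sham libraries, and did not pass the test (edgeR, Benjamini-Hochberg adjusted p = 0.063). It passed without sham replicate 2 (edgeR, Benjamini-Hochberg adjusted p = 0.0229, against a range of 0.0229 to 0.49 over all alternatives). Gse1, opposite Gins2, held 56 counts in sham, 52 in injury and 33 in CRC, with the CRC libraries below all others in CPM. Its log2 fold changes of −0.95 (SE 0.44) and −0.84 (SE 0.44) against sham and injury were not called (edgeR, Benjamini-Hochberg adjusted p = 0.13 and 0.238).

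Of the replication genes' own features 4 were tested, and 1 was called, lower in CRC than in injury, as were 7.82% of all tested features. It was Gins2, a subunit of the replicative helicase complex and with 6061 counts the most counted gene of the list, which was lower in 3 of 3 libraries (log2 fold change −0.53, SE 0.15; edgeR, Benjamini-Hochberg adjusted p = 0.0189). This call was lost in 5 of 15 alternatives with values up to 0.19, among them those without CRC replicate 2 or 3 and without injury replicate 1 or 3. Against sham Gins2 was called only without sham replicate 2. Tk1, the thymidine kinase of S phase, held 308 counts in sham, 296 in injury and 495 in CRC, and was not called. Its CRC libraries lay above all others, with log2 fold changes of 0.49 (SE 0.20) against sham and 0.55 (SE 0.20) against injury. These had edgeR unadjusted p = 0.0176 and 0.00926, and Benjamini-Hochberg adjusted p = 0.0724 and 0.0641.

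Among 10 genes of RCC1-domain proteins and Kdm8, Rccd1 had the most counts, before Rcbtb2 with 182 and Herc1 with 109. Rcc1, the exchange factor of Ran that names the fold, held 6 counts, Rcc2 and Herc2 held 0, and Kdm8 held 18. Herc1 and Rcbtb2 were tested and called by edgeR in no comparison. Of the features opposite the list, Prc1 aside, 2 were tested, and 1 was called lower in CRC than in sham and in injury. Beside this, 12% and 7.82% of all tested features were called lower, and 15.9% and 9.85% of those that share exon bases across strands. Gm17300, opposite Rcc1, was lower in CRC, with 733 counts in sham, 525 in injury and 289 in CRC and log2 fold changes of −1.53 (SE 0.19) and −1.05 (SE 0.19) (edgeR, Benjamini-Hochberg adjusted p = 4.37e-07 and 0.000183). It shares 19 bases with Rcc1 and 705 with the gene it overlaps most. Gm28379, opposite Herc1, held 327, 359 and 441 counts and was not called, with log2 fold changes of 0.25 (SE 0.23) against sham and 0.10 (SE 0.23) against injury.

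Genes around the pair were looked at next. Within 100 kb of the pair 14 other features were counted, 5 of them with 0 counts in all libraries, and 4 were tested. A further 2 of the annotation, 6330403N20Rik inside Prc1 and Gm18310, were not analysed here. Unc45a, a myosin chaperone gene next to the start of Rccd1 and on the same strand, held 225 counts in sham, 266 in injury and 342 in CRC. Hddc3 held 248, 285 and 412 counts, and the protease gene Furin 110, 126 and 130. None of these 3 was called by edgeR or showed an unadjusted p under 0.05, except Hddc3 in CRC against sham, which was higher at an unadjusted p under 0.05 alone. Man2a2, a gene for an enzyme of N-glycan processing, was higher in CRC than in injury in 3 of 3 libraries (log2 fold change 1.05, SE 0.32; edgeR, Benjamini-Hochberg adjusted p = 0.0283). Of all 3722 tested features 190 were called higher in CRC than in injury. The call of Man2a2 was lost in 6 of 15 alternatives, with values up to 0.189, among them each of those without 1 injury replicate and those without CRC replicate 1 or 2. In mean CPM Unc45a, Hddc3 and Man2a2 were highest in CRC (348, 419 and 143 CPM), and Furin was highest in injury, with 127 CPM in sham, 147 in injury and 132 in CRC.

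The 5 features most like Rccd1 were taken by Pearson r of log2 CPM over the 9 libraries, which share group and depth. They were Gm48840 (r = 0.98), Naa35 (r = 0.98), Prss23os (r = 0.98), Hemk1 (r = 0.97) and D10Wsu102e (r = 0.97), and 71 features had an r over 0.9. The first, Gm48840, held 837 counts in sham, 1050 in injury and 353 in CRC. Naa35, a subunit gene of an N-terminal acetyltransferase, held 955, 1615 and 335 counts. Like Rccd1 both were highest in injury and lowest in CRC. They were chosen for levels that follow Rccd1, so nothing is read from this.

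Prss23os held 6690 counts in sham, 7055 in injury and 2176 in CRC. Hemk1, a methyltransferase gene, held 89, 153 and 3 counts, and D10Wsu102e held 1573, 1936 and 981. All of the 5 but Hemk1 share exon bases with a feature on the other strand (Mpzl2, Golm1, Prss23 and Aldh1l2). Of all 3722 tested features 2182 did so.

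Markers of the tissue were checked beside these results. The uterine genes Pgr, the progesterone receptor, and Myh11, the smooth muscle myosin, held 619 and 459 counts, while Esr1 held 24 and Foxa2, of the glands, 0. Of the 14 epithelial markers 11 had under 10 counts, with Cdh1 and Foxa2 at 0, and 1 was tested, Sox17, which was the most counted with 137 and not called. Their summed counts were 32, 21 and 26 in sham, 13, 19 and 15 in the injury group, and 30, 36 and 22 in the CRC group. The defining genes of the injected cell type were thus too thinly counted to show its share.

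Some markers of other cell types were lower in CRC than in sham, as Rccd1 was. Of 8 smooth muscle markers 3 were tested and 1 was called lower in CRC than in sham, as were 12% of all tested features. It was Myh11, the most counted with 459 of the 937 counts of the list (log2 fold change −1.25, SE 0.30; edgeR, Benjamini-Hochberg adjusted p = 0.00299), with summed counts of the list of 123, 151 and 137 in sham, 84, 95 and 90 in the injury group, and 79, 76 and 102 in the CRC group. Tagln, with 69 counts in sham, 54 in injury and 36 in CRC, was not called (edgeR, Benjamini-Hochberg adjusted p = 0.0528 against sham), nor was Lmod1, with 39, 41 and 49. Cnn1, not tested, held 10, 19 and 23 counts. Of 11 stromal markers 4 were tested. Nr2f2, the most counted with 498, was called higher in CRC than in sham (log2 fold change 0.82, SE 0.25; edgeR, Benjamini-Hochberg adjusted p = 0.0189), as were 8.03% of all tested features. This call was lost without sham replicate 1 or 3, without CRC replicate 2 or 3 and without the filter, with values up to 0.0939. The collagen genes Col1a1 and Col3a1 passed the filter through the sham libraries, so their calls are not used. Col1a1 held 10, 16 and 28 counts in sham, 5, 6 and 11 in the injury group, and 3, 2 and 4 in the CRC group, and Col3a1 held 47, 26 and 14 counts in the 3 groups. The stromal sums were 94, 108 and 146 in sham, 88, 100 and 91 in the injury group, and 132, 129 and 131 in the CRC group. The leukocyte list rested on 1 gene. Of its 8 markers 5 were at 0, Ptprc, Adgre1, Cd3e, S100a8 and Lyz2, and Csf1r, with 496 of the 500 counts of the list, was lower in CRC than in sham (log2 fold change −1.04, SE 0.26; edgeR, Benjamini-Hochberg adjusted p = 0.00431). Against injury, where Rccd1 was lower as well, neither Myh11 (log2 fold change −0.34, SE 0.31) nor Csf1r (−0.76, SE 0.26) was called (edgeR, Benjamini-Hochberg adjusted p = 0.546 and 0.0517). Csf1r passed there with only the 2 groups compared, without injury replicate 2 and without sham replicate 1 or 2. Csf1r shares 873 exon bases with Hmgxb3 on the other strand, and its counts are not read as the share of leukocytes.

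The sums of the leukocyte list, which are nearly all counts of Csf1r, went down in CRC with that gene. They were 66, 63 and 79 in sham, 63, 49 and 64 in the injury group, and 45, 36 and 35 in the CRC group. Of 6 endothelial markers 0 passed the filter on low counts, and Emcn was the most counted with 48. It went the other way, with 2, 3 and 3 counts in sham, 4, 4 and 4 in the injury group, and 8, 13 and 7 in the CRC group. The TMM factors also differed by group, from 0.850 to 0.948 in sham, 0.991 to 1.01 in injury and 1.12 to 1.14 in CRC. The part of the cell types in the lower counts of Rccd1 and of the other opposite features was not tested. With all records as library sizes, which leaves the TMM factors out, the log2 fold change of Rccd1 was −2.70 for CRC against sham and −3.39 for CRC against injury.

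Features on the strand opposite marker genes moved in both directions. For smooth muscle 2 were tested, and both were called lower in CRC than in sham, beside 12% of all tested features and 15.9% of those that share exon bases across strands. Gm48529, opposite the actin-binding protein gene Tagln, held 57581 counts in sham, 45424 in injury and 27070 in CRC, with log2 fold changes of −1.28 (SE 0.10) against sham and −0.94 (SE 0.10) against injury (edgeR, Benjamini-Hochberg adjusted p = 1.76e-10 and 3.69e-08). Gm11946, opposite Smtn, was called against sham (log2 fold change −0.88, SE 0.16; edgeR, Benjamini-Hochberg adjusted p = 0.000207) and not against injury (edgeR, Benjamini-Hochberg adjusted p = 0.0859), although it was with only the 2 groups compared, without injury replicate 2 and without sham replicate 1 or 2 (0.0241, 0.013, 0.0343 and 0.031, against a range of 0.013 to 0.401 over all alternatives). Higher in CRC was Gm37587, the 1 tested feature of the epithelial list, opposite Sox17, with 209 counts in CRC beside 69 in sham and 45 in injury. Against these its log2 fold changes were 1.40 (SE 0.30) and 2.01 (SE 0.32) (edgeR, Benjamini-Hochberg adjusted p = 0.000967 and 3.2e-05). Of all 3722 tested features 299 (8.03%) were called higher in CRC than in sham and 190 higher than in injury. Of 3 tested features opposite stromal genes 1 was called higher in CRC than in injury, as were 190 of all 3722 tested features. It was B130024G19Rik, opposite Nr2f2 (log2 fold change 0.58, SE 0.19; edgeR, Benjamini-Hochberg adjusted p = 0.0442). This call was lost in 9 of 15 alternatives with adjusted p-values up to 0.34, among them those without sham replicate 3, injury replicate 1 or 3, or any 1 of the CRC replicates.

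Promoters of the pair were searched for motifs linked with mitotic genes. The motifs were the cell cycle homology region (CHR), TTTGAA or TTCGAA, and the CCAAT box, CCAAT, on both strands, in windows from 250 bases before to 50 bases after each start in RefSeq (GRCm38.p6). Over all 32851 promoter windows 19.2% held a CHR, 37.4% a CCAAT box and 7.52% both. Both genes were matched, Prc1 with 2 windows and Rccd1 with 1. The windows of Prc1 held both motifs and that of Rccd1 held 2 CCAAT boxes and no CHR. Of the features opposite mitotic genes, Cdc23 and Gm37401 were not searched, and Exosc9 had no window. Pdzd11 had 1 window, with 1 CHR and 2 CCAAT boxes. This window overlaps that of Kif4, and the matches of both are the same bases, so they are not separate sites. Lcorl had 2 windows, 1 with 2 CHR and no CCAAT box and 1 with neither, and Ncapg, the gene opposite to it, had 1 of each motif. The stretches of the pair with the matches, in capitals, are shown to compare the 2 promoters, each read 5′ to 3′ on the strand of its gene. That of Prc1, at chr7:80294401-80294451 on the plus strand, ends at the start of the gene, and that of Rccd1, at chr7:80324474-80324529 on the minus strand, ends 20 bases before the start.
Prc1: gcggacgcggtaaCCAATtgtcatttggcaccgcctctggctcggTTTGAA
Rccd1: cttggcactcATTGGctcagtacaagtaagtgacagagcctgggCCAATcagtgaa
In Prc1 the CCAAT box begins 37 bases and the CHR 5 bases before the first of its 2 RefSeq starts. In Rccd1 the first box, 65 bases before the start, is read on the other strand. A match describes the letters of the window and is not evidence of a bound site.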

How the data were processed

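For each of the 9 libraries the authors deposited whole-number read counts for 55228 features, not normalized, with 5 closing rows for reads not counted on a feature, which held 99.2% of all records and were left out. HISAT2 2.1.0 and StringTie 2.1.1 are named in the submitters' processing notes, after removal of ribosomal RNA, and the names of the deposited files and of their closing rows are those of HTSeq, while its version and whether it used strand are not given in the sources used here. Exon positions, and the exon bases that genes share across strands, came from GENCODE M21 (GRCm38), in which 53569 features matched by name. The opposite feature of a gene is the one that shares most exon bases with it on the other strand.

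Differential expression was tested with edgeR 4.0.16 in R 4.3.3 (filterByExpr, TMM, robust quasi-likelihood fit of all 9 libraries without covariates) and p-values were adjusted by Benjamini-Hochberg over 3722 features, with calls under 0.05. Groups came from the sample labels. Feature totals of 280886 to 327883 counts limit the precision, and errors cover the spread between the 3 mice of a group. No 2 libraries of the same group were copies of each other, since over these pairs the chi-square of their counts was 2.20 to 11.9 times its degrees of freedom. The pair, the gene lists and the tests were chosen with earlier results of these data known. Named features were the pair, those within 100 kb, called members of the cell-cycle and RCC1 lists or the features opposite to them, the 5 most like Rccd1, housekeeping mRNAs with Xist and Tsix, and markers of tissue and cell types. Uncalled members named as examples, features opposite markers and promoters other than those of the pair were picked after their values were seen. Alternatives were DESeq2 1.42.0 size factors and Wald test, all records as library size without TMM, no filter, only the 2 groups compared, a block for the replicate number, and 1 library left out at a time. Their use on the opposite features and on single named features was added after seeing the data. The fit was tried on simulated data for CRC against sham with 3419 features. It recovered 85.8% of 4-fold and 35.8% of 2-fold changes, while 3.23% of the called features had not been changed. The simulation took the spread from the trend over features and changed 187 features, fewer than the 746 called in the data. Its rates therefore need not hold there.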

Additional observations from a re-analysis of the deposited data

How the results depend on the processing

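The log2 fold change of Rccd1 kept its direction under all 15 alternatives, from −3.23 to −2.70 for CRC against sham and from −3.85 to −3.39 for CRC against injury, and without 1 library it was −3.23 to −2.77 and −3.85 to −3.39. For injury against sham it was 0.41 to 0.81 without 1 library, past the threshold only without sham replicate 1. Prc1 in CRC against sham was −0.073 with all records as library size. In injury against sham Prc1 was −0.14 to 0.14 without 1 library, and changed sign without injury replicate 3 (−0.083) and sham replicate 3 (−0.14), both close to 0. The number of features called between injury and sham was 16, 6 with only the 2 groups compared, 24 with DESeq2's test or no filter, and 3 to 154 without 1 library. Between CRC and sham it was 505 to 924 and between CRC and injury 330 to 708. With all records as library size the median log2 fold change was 0.32 for CRC against sham and 0.21 for CRC against injury, and 643 of 924 and 339 of 529 calls were higher, against 299 of 746 and 190 of 481 with TMM. Cdc23, Lcorl, Gm37401, LTO1 and Gm17300 were called lower in both CRC comparisons under all 15 alternatives. With the replicate number as a block 5 features were called between injury and sham, and Rccd1 was at 0.62 (SE 0.21). Libraries with the same number did not deviate together (r from −0.096 to 0.080 over 9 pairs, 0 of them over 0.1). With 3 libraries a group this cannot exclude a batch shared by number, and the numbers were not taken to pair the mice. The causes of these changes were not tested.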
